A study of Rattus norvegicus with 16 samples.

Results

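The pancreas of rats that received 100 µg of benzalkonium chloride (BKC) per instillation was compared with the pancreas of rats that received vehicle. The 4 pancreas libraries, chosen by their organ and treatment labels, were 2 vehicle and 2 BKC libraries among the 16 libraries of the study, which also covered adrenal gland and heart. BKC is a quaternary ammonium disinfectant and preservative, and it was placed into the trachea, so the pancreas was measured as an organ distant from the site of exposure. All animals were male Sprague-Dawley rats of wildtype genotype. Instillations began at 7 weeks of age and were given 10 times, every 3 days, and the animals were killed on day 31, at 24 h from the final instillation. The vehicle liquid is not named in the labels, and the sample titles call every group a control, so groups were taken from the treatment label. The vehicle libraries carry animal numbers 2 and 3 and the BKC libraries animal numbers 1 and 4. In the text they are called replicates 1 and 2 of their group, and values of a gene are given in that order.

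The pancreas is mostly exocrine. Its acinar cells make and store digestive enzymes as inactive precursors and release them into ducts, while scattered islets release insulin, glucagon and other hormones into blood. Fat cells lie between the lobules, and acinar cells depend on a large endoplasmic reticulum whose folding and degradation machinery keeps pace with enzyme synthesis.

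Expression values were read as FPKM (fragments scaled to transcript length and to library size), a unit inferred from the values and not stated with them. Levels of different genes can be set side by side only as far as that reading holds. The libraries matched the label pancreas. The acinar enzymes Prss1, Cpa1, Cela1, Amy2a3 and Pnlip measured between 8093 and 38185 FPKM in the 4 libraries, whereas none exceeded 1 FPKM in any adrenal or heart library. The adrenal steroid enzymes Cyp11a1 and Cyp11b1 were listed at 0, and the heart genes Myh6, Myl7 and Tnnt2 did not exceed 0.182 FPKM. Read depth is unknown, and the sum of FPKM ranged from 486061 to 603063 per library. The 50 highest genes held 92.6 to 93.4% of that sum. Rn7sl1, the RNA of the signal recognition particle, took 14.5 and 15.9% of it in the vehicle libraries and 23.6 and 19.8% in the BKC libraries, so its groups did not overlap. Pearson correlations of log2(FPKM + 1) between libraries lay between 0.959 and 0.982 over 5610 genes, and the highest joined vehicle replicate 2 with BKC replicate 2.

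A total of 22 genes passed limma's test (Benjamini-Hochberg adjusted p under 0.05) among the 5610 genes that averaged 1 FPKM or more over the 4 libraries, which is 0.392% of the genes tested. Of these, 9 rose (0.16%) and 13 fell (0.232%), and 16 are protein coding. In all 22 both BKC libraries lay on the same side of both vehicle libraries. That was also the case for 16.1% of all genes tested, with 5.06% above and 11% below vehicle. The log2 change over all genes tested had a median of -0.07. Errors of log2 changes are standard errors. For most genes the errors and p-values rest on a variance trend over all genes, not on the gene's own spread between these libraries. They can understate the spread of genes whose replicates differ widely, such as Sel1l and Fkbp5.

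The calls depended on the scaling of the libraries and on single libraries. Scaled by the median ratio of genes, the data gave 0 rises and 1 fall, with 413 genes at an unadjusted p under 0.05. Quantile normalization gave 0 rises and 2 falls. With only 1 BKC library in the fit the spread comes from the vehicle pair alone, the lone library is assumed to vary like that pair, and the test called 0 genes: 28 genes were at an unadjusted p under 0.05 without BKC replicate 1 and 52 without BKC replicate 2. With 1 vehicle library in the fit the spread comes from the BKC pair alone. Without vehicle replicate 1 it called 32 genes, 10 of them among the 22, and without vehicle replicate 2 it called 115 genes, 14 of them among the 22. Each of the 22 genes kept its sign under every alternative in which it was tested. The plot of called genes shows the values behind them.

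**Figure D1:**
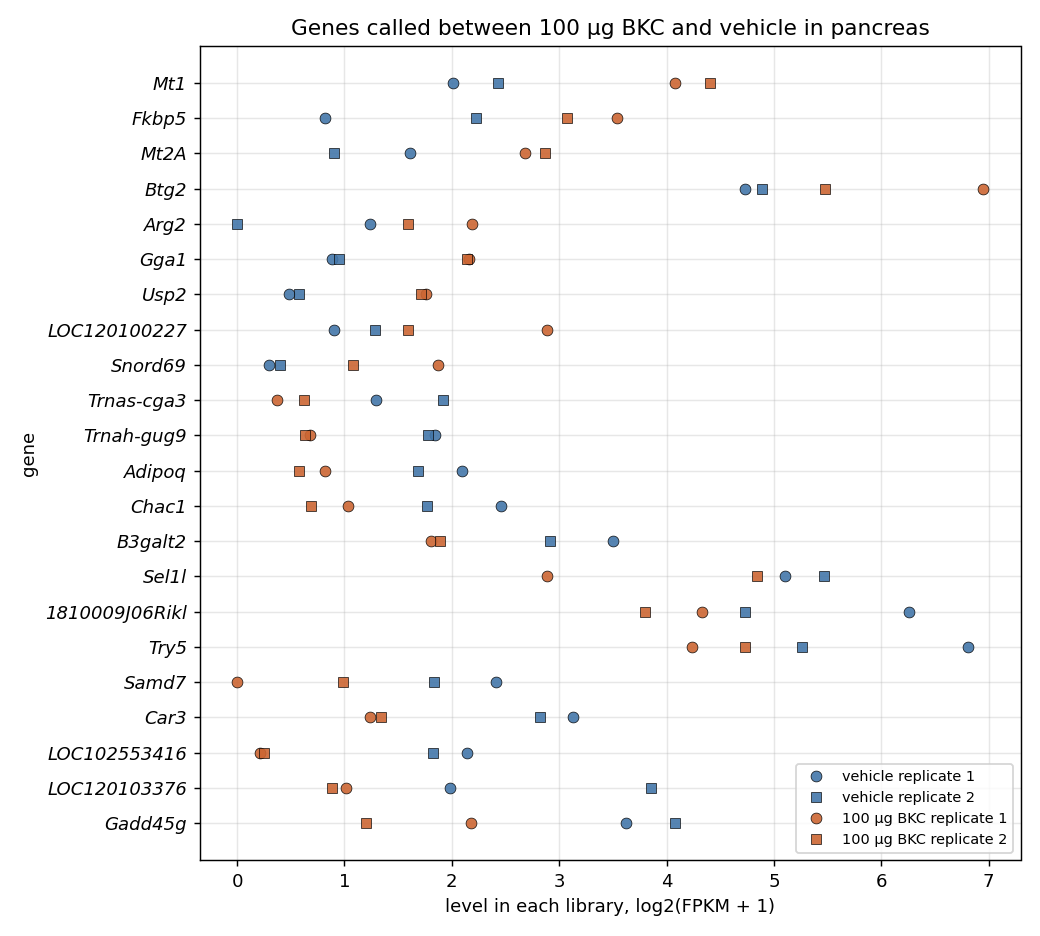
Level of the 22 called genes in each of the 4 pancreas libraries, as log2(FPKM + 1), with genes in rows ordered by log2 change. Blue marks are vehicle and orange marks BKC libraries, circles replicate 1 and squares replicate 2. In every row the orange marks lie on one side of the blue ones. Among others, Sel1l, LOC120103376, Try5, 1810009J06Rikl, Btg2 and Fkbp5 show wide gaps within a group.

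The transcripts of both expressed metallothioneins rose. Metallothioneins are small cysteine-rich proteins that bind zinc and copper, and their genes are known to respond to metals through the factor MTF1 and to glucocorticoids. Mt1 measured 3.03 and 4.40 FPKM in the vehicle libraries and 15.8 and 20.2 FPKM in the BKC libraries. Every BKC value was more than 3 times every vehicle value. The log2 change was 2.02 ± 0.36 (limma adjusted p = 2.55e-05). Mt2A, its neighbour in the rat genome, measured 2.06 and 0.873 FPKM with vehicle and 5.42 and 6.29 FPKM with BKC. The gap between the groups was wider than the spread in either of them, with a log2 change of 1.52 ± 0.32 (limma adjusted p = 0.00111). Mt3 was listed at 0 in all 4 libraries.

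The promoters of both genes are shown because the genes lie side by side and moved together. The sequences are the RefSeq windows of assembly GRCr8 from 250 bases before to 50 bases after the gene start, written 5′ to 3′ on the gene's strand, with each match to the metal response element TGCNCNC on either strand in capitals.
Mt1, chr19:10832926-10833225, minus strand: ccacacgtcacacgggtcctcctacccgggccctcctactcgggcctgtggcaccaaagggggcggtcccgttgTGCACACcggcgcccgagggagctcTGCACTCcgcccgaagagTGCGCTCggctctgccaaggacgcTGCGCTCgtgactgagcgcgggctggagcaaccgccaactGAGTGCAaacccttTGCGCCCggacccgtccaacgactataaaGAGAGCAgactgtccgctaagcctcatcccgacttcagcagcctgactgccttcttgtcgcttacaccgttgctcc
Mt2A, chr19:10838659-10838958, minus strand: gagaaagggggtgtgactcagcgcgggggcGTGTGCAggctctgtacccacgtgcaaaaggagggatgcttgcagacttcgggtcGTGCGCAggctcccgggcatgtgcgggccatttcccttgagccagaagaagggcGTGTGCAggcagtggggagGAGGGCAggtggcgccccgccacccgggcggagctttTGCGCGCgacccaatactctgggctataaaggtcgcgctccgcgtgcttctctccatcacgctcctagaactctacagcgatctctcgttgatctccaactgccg
The Mt1 window holds 7 matches and the Mt2A window 5, all before the gene start and none overlapping the TATA box TATAAA of the window. A single match is common, since 49.6% of 33469 rat promoter windows of the same length hold at least 1. At least 5 matches occur in 0.669% of windows and at least 7 in 0.108%. On either strand, the glucocorticoid response element was found in neither window, and its hexamer AGAACA in neither, while AGAACA occurs in 20.7% of windows. The antioxidant response element TGACNNNGC is in both windows and in 12.1% of all. A match, or its absence, is a description of these letters, and binding was not measured.

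The other genes of zinc handling did not pass the test. Of 9 genes tested on the metallothionein and zinc list, 2 rose and 7 did not pass, beside 0.16% of all genes tested that rose. Slc30a2, a transporter that loads zinc into secretory vesicles, measured 2.31 and 1.99 FPKM with vehicle and 3.09 and 3.75 FPKM with BKC. Slc39a5, a zinc importer, measured 13.4 and 12.4 FPKM with vehicle and 16 and 16.6 FPKM with BKC. For both the BKC libraries lay above the vehicle libraries by a small margin, with log2 changes of 0.49 ± 0.31 and 0.32 ± 0.37. Slc39a14 and Slc30a7 had negative log2 changes of -0.37 and -0.16. Mtf1 stayed under 1 FPKM in all 4 libraries and was not tested. With median-ratio scaling the log2 change was 2.08 for Mt1 (adjusted p = 0.401) and 1.60 for Mt2A (adjusted p = 0.0802).

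Fkbp5, a co-chaperone of the glucocorticoid receptor and one of the best known genes induced by that receptor, also rose. It measured 0.763 and 3.68 FPKM in the vehicle libraries and 10.6 and 7.39 FPKM in the BKC libraries. The vehicle libraries differed from each other by more than 4 times, and both lay below the BKC libraries. The log2 change was 1.78 ± 0.33 (limma adjusted p = 7.75e-05). Without vehicle replicate 1 it was 1.08 (adjusted p = 0.106).

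On the list of glucocorticoid response genes, 3 of 18 tested genes rose, 0 fell and 15 did not pass. Over all genes tested, 0.16% rose and 0.232% fell. The 3 that rose were Mt1, Mt2A and Fkbp5, and Mt1 and Mt2A are also counted on the metallothionein and zinc list. The median log2 change of the list was 0.22, beside -0.07 over all genes tested, and 14 of its 18 changes were positive, compared with 1963 of 5610 over all genes. Zbtb16, a zinc finger repressor, measured 2.58 and 3.24 FPKM with vehicle and 6.08 and 4.61 FPKM with BKC, a log2 change of 0.69 ± 0.33 that did not pass. Pdk4, an inhibitor of pyruvate dehydrogenase, measured 3.54 and 4.05 FPKM with vehicle and 8.37 and 4.45 FPKM with BKC. In both genes the BKC values lay above the vehicle values, and BKC replicate 1 was the higher of its group. Tsc22d3, which encodes GILZ, measured 4.79 and 5.55 FPKM with vehicle and 9.63 and 4.94 FPKM with BKC, so its groups overlapped. Nfkbia, the inhibitor of NF-κB, lay lower with BKC at 6.59 and 3.98 FPKM against 7.74 and 9.64 FPKM and did not pass. Nr3c1, the receptor itself, measured 7.44 and 3.52 FPKM with vehicle and 3.28 and 3.48 FPKM with BKC. Dusp1 was also lower in both BKC libraries, at 2.25 and 1.75 against 1.42 and 1.19 FPKM, and did not pass. List members under the filter were not raised. Sgk1 (1.02 and 1.12 against 0.804 and 0.743 FPKM), Pck1 (0.863 and 0.493 against 0.292 and 0.322 FPKM) and Igfbp1 were lower in both BKC libraries. Cdkn1c overlapped between the groups, and Tat was listed at 0.

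Among genes driven by the circadian clock, 1 passed the test. Usp2, a deubiquitinase whose transcript cycles in many tissues, measured 0.398 and 0.487 FPKM with vehicle and 2.39 and 2.27 FPKM with BKC. Replicates were almost equal in both groups, and the log2 change was 1.21 ± 0.27 (limma adjusted p = 0.00395). With vehicle replicate 1 left out the change was 1.16 (adjusted p = 0.00493), and with vehicle replicate 2 left out it was 1.25 (adjusted p = 0.00324). With median-ratio scaling it was 1.24 (adjusted p = 0.0771). Both vehicle values lay under the filter on low values, so Usp2 was tested only because of its BKC values. Without that filter its limma adjusted p was 0.855.

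All 7 clock output genes tested had positive log2 changes, with a median of 0.53. Of these, 1 rose and 6 did not pass, beside 0.16% of all genes tested that rose. Above vehicle in both BKC libraries lay 4 of them, beside 5.06% of all genes tested. Usp2 is 1 of these 4 and met the filter only through its BKC values. Bhlhe40, a transcriptional repressor of the clock, measured 1.35 and 1.24 FPKM with vehicle and 2.68 and 2.08 FPKM with BKC. Dbp, a D-box activator, measured 4.80 and 0.962 FPKM with vehicle and 1.44 and 7.48 FPKM with BKC. The groups of Bhlhe40 were apart, whereas those of Dbp overlapped. List members under the filter were not uniformly raised. Ciart lay above vehicle in both BKC libraries, whereas Nampt, Nfil3, Noct, Hlf, Bhlhe41, Lonrf3 and Ppp1r3c overlapped between the groups. Nampt measured 0.811 and 0.675 FPKM with vehicle and 0.544 and 0.691 FPKM with BKC.

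None of the 12 core clock genes tested passed, and their median log2 change was 0.03. Per2, a repressor of the central loop, came closest: it measured 1.11 and 1.16 FPKM with vehicle and 3.97 and 3.04 FPKM with BKC. Its log2 change of 1.07 ± 0.29 had a limma adjusted p of 0.0636, the smallest among genes that did not pass. It passed with either vehicle library left out (log2 changes of 1.05 and 1.09) and with the 50 highest genes left out (1.13). Per1, which is both a clock gene and a glucocorticoid target, measured 2.12 and 2.04 FPKM with vehicle and 4.99 and 3.51 FPKM with BKC, a log2 change of 0.75 ± 0.31. The Per genes 1 and 2 were above vehicle in both BKC libraries. Bmal1, at 0.759 and 1.40 against 1.80 and 0.350 FPKM, and Nr1d1, at 3.24 and 1.26 against 0.507 and 3.60 FPKM, overlapped between the groups.

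Among rapidly induced growth and stress genes, Gadd45g fell and Btg2 rose. Gadd45g, a member of the growth arrest family that activates stress kinases, measured 11.3 and 15.9 FPKM with vehicle and 3.52 and 1.30 FPKM with BKC. The lowest vehicle value was more than 3 times the highest BKC value. Its log2 change of -2.16 ± 0.35 was the largest fall among the called genes (limma adjusted p = 1.15e-06). Btg2, an antiproliferative gene induced by p53, measured 25.6 and 28.7 FPKM with vehicle and 123 and 43.5 FPKM with BKC. Here BKC replicate 1 stood far above its partner, and the log2 change was 1.40 ± 0.36 (limma adjusted p = 0.0292). Without BKC replicate 1 it was 0.66, and without robust shrinkage of variances the adjusted p was 0.212.

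Of 13 immediate early genes tested, 1 rose, 1 fell and 11 did not pass, with a median log2 change of -0.01. Over all genes tested, 0.16% rose and 0.232% fell. Gadd45b, from the same family as Gadd45g, measured 1.80 and 1.82 FPKM with vehicle and 0.517 and 0.724 FPKM with BKC. Junb, a subunit of the AP-1 factor, measured 4.90 and 3.25 FPKM with vehicle and 0.902 and 2.62 FPKM with BKC. Jund, another AP-1 subunit, lay the other way at 5.54 and 3.60 FPKM with vehicle and 10.8 and 8.66 FPKM with BKC. These 3 genes had groups that did not overlap, and none passed. The p53 target list, of which 8 were tested, held the same pair of called genes, Btg2 and Gadd45g. The cell cycle inhibitor Cdkn1a varied widely within both groups, at 0.367 and 2.65 FPKM with vehicle and 5.64 and 0.422 FPKM with BKC, and its groups overlapped. Gadd45g lost its call without vehicle replicate 1 (-2.39, adjusted p = 0.516) and without vehicle replicate 2 (-1.93, adjusted p = 0.215).

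**Figure D2:**
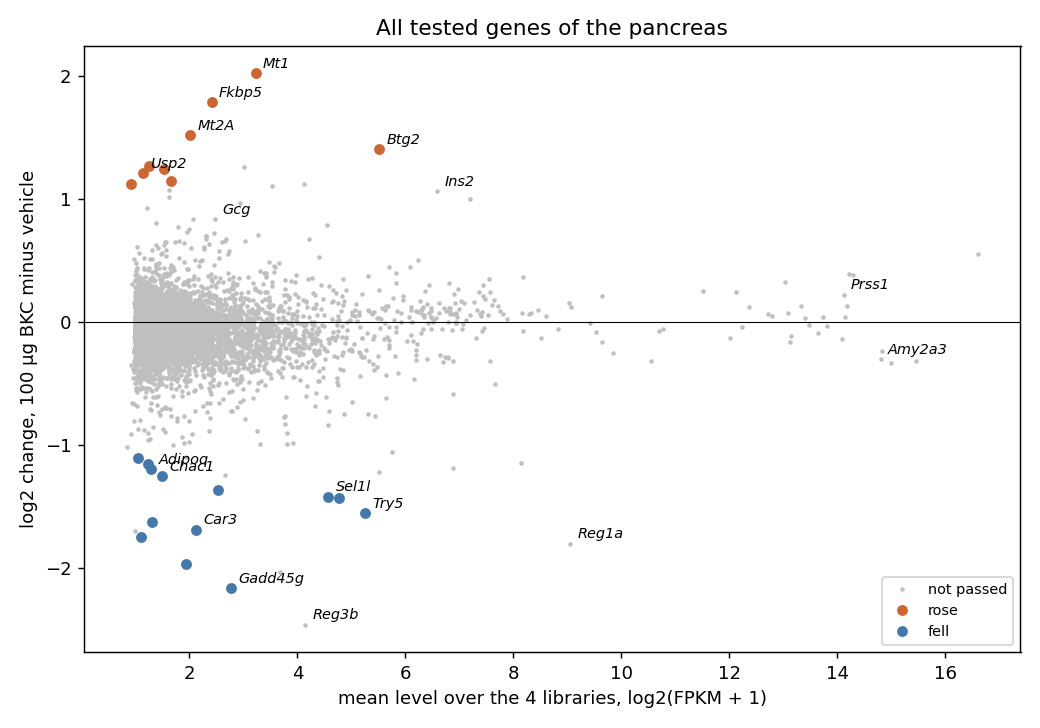
Log2 change (BKC minus vehicle) of 5610 tested genes on the y axis against their mean log2(FPKM + 1) over the 4 libraries on the x axis, with genes that rose in orange and genes that fell in blue. The 22 called genes stand at the edges of the cloud at low and middle levels, while enzymes such as Prss1 and Amy2a3 at the far right lie near 0; Reg3b, Reg1a, Gcg and Ins2 lie apart without passing.

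The adipocyte genes Car3 and Adipoq fell. Car3, a carbonic anhydrase that is abundant in fat and slow muscle, measured 7.75 and 6.07 FPKM with vehicle and 1.35 and 1.53 FPKM with BKC. Each BKC value was less than every vehicle value by more than 3 times, and the log2 change was -1.69 ± 0.32 (limma adjusted p = 0.000117). Adipoq, the adipocyte hormone adiponectin, measured 3.28 and 2.21 FPKM with vehicle and 0.766 and 0.487 FPKM with BKC, a log2 change of -1.19 ± 0.27 (limma adjusted p = 0.00671). With 1 vehicle library left out, either way, both genes passed. With median-ratio scaling their log2 changes were -1.62 (adjusted p = 0.0533) and -1.14 (adjusted p = 0.0771).

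Of 8 adipocyte markers tested, 2 fell, 0 rose and 6 did not pass, with a median log2 change of -0.59. Of all genes tested, 0.232% fell. The lipid chaperone Fabp4 measured 24.2 and 16.8 FPKM with vehicle and 10.5 and 9.05 FPKM with BKC, and the serine protease Cfd (adipsin) 4.99 and 4.33 against 2.34 and 1.72 FPKM. Both were lower in both BKC libraries without passing. Lpl, which is not limited to fat, measured 13.5 and 9.27 FPKM with vehicle and 13.1 and 11.7 FPKM with BKC. Among all 17 markers in the table, 10 were lower in both BKC libraries than in both vehicle libraries and 0 were higher. The 17 include 9 markers under the level tested. Among the 8 tested, 4 were lower in both BKC libraries, beside 11% of all genes tested. Adipoq is 1 of these 4 and met the filter only through its vehicle values. Low members such as Cidec, a lipid droplet protein, at 0.635 and 0.569 against 0.173 and 0.0266 FPKM, were among the 10. The summed level of the list was 64.6 and 46.0 FPKM with vehicle and 34.4 and 31.8 FPKM with BKC, and Ucp1 was listed at 0. In bulk tissue fewer cells of a type and less RNA per cell cannot be told apart, and the amount of fat in each piece was not measured.

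**Figure D3:**
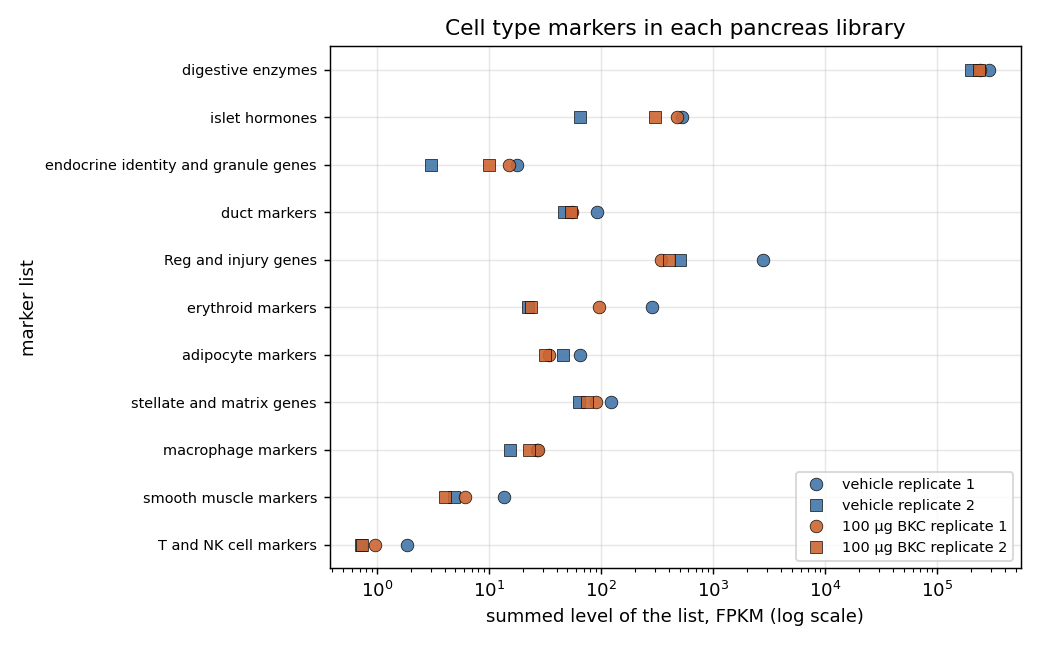
Summed FPKM of cell type marker lists in each pancreas library on a log scale, with vehicle in blue, BKC in orange, circles for replicate 1 and squares for replicate 2. Adipocyte markers are lower in both BKC libraries (34.4 and 31.8 against 64.6 and 46.0 FPKM), while islet hormones are lowest in vehicle replicate 2 and Reg and erythroid sums are highest in vehicle replicate 1.

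Transcripts that define the acinar cell did not pass the test. None of 28 digestive enzyme and granule genes tested passed, with a median log2 change of -0.03, and the 30 listed genes took 47.9 and 41.1% of the FPKM sum with vehicle and 41.8 and 43.4% with BKC. Amy2a3, pancreatic amylase, measured 38185 and 26303 FPKM with vehicle and 25558 and 25914 FPKM with BKC. Its log2 change of -0.30 ± 0.33 turned to 0.11 under quantile normalization, and without vehicle replicate 2 it was -0.57 (adjusted p = 0.0464). Prss1, cationic trypsinogen, measured 20734 and 12998 FPKM with vehicle and 18873 and 19413 FPKM with BKC. For both genes vehicle replicate 1 was the highest library, and the error allows changes of either sign. None of 11 acinar transcription factors passed. Ptf1a, the factor that specifies acinar cells, measured 11.6 and 6.11 FPKM with vehicle and 10.3 and 12.2 FPKM with BKC. None of 17 genes of the acinar stimulus and calcium list passed either, and Cckar, the cholecystokinin receptor, lay between 23.3 and 27.9 FPKM in all 4 libraries.

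Within the trypsin family, 2 of the less abundant members fell and the abundant ones did not pass. Try5 measured 111 and 37.2 FPKM with vehicle and 17.8 and 25.5 FPKM with BKC. Vehicle replicate 1 was the high library, and the log2 change was -1.55 ± 0.36 (limma adjusted p = 0.00770). 1810009J06Rikl, which RefSeq also lists as Try4, measured 75.3 and 25.6 FPKM with vehicle and 19.1 and 13.0 FPKM with BKC, a log2 change of -1.43 ± 0.37 (limma adjusted p = 0.0312). Prss3, at 140 and 41.2 against 37.5 and 34.9 FPKM, and Prss3bl1, at 672 and 263 against 190 and 189 FPKM, had the same order of libraries without passing. Prss3b, at 18604 and 9244 against 11836 and 12808 FPKM, and Prss2, at 1057 and 668 against 762 and 736 FPKM, had groups that overlapped. These genes are close paralogs in 1 genomic block of 27 genes, so reads may have been divided among them and the values of single members are uncertain. Without vehicle replicate 1 the log2 change was -0.78 for Try5 and -0.67 for 1810009J06Rikl, and neither passed.

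Of the genes that keep protein folding in step with secretion, 1 fell. Sel1l, the adaptor of the complex that removes misfolded proteins from the endoplasmic reticulum, measured 33.3 and 43.3 FPKM with vehicle and 6.38 and 27.8 FPKM with BKC. BKC replicate 1 was far below the other libraries, and the log2 change was -1.42 ± 0.38 (limma adjusted p = 0.0446). Without BKC replicate 1 it was -0.44. On the list of endoplasmic reticulum chaperones and the unfolded protein response, 31 genes were tested. Of these, 1 fell and 30 did not pass, with a median of -0.02, beside 0.232% of all genes tested that fell. Hspa5, the chaperone BiP, measured 50.9 and 37.0 FPKM with vehicle and 49.3 and 32.4 FPKM with BKC. Edem1, which feeds misfolded glycoproteins into degradation, measured 14.1 and 20.0 FPKM with vehicle and 39.9 and 22.3 FPKM with BKC. Ern1, the sensor IRE1, measured 2.69 and 3.06 FPKM with vehicle and 7.08 and 3.87 FPKM with BKC. In Edem1 and Ern1 the BKC values lay above the vehicle values, the opposite side from Sel1l, and neither passed.

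Chac1, an enzyme that degrades glutathione and is a known target of the stress factor ATF4, fell. It measured 4.51 and 2.40 FPKM with vehicle and 1.05 and 0.608 FPKM with BKC, with no overlap of the groups. The log2 change was -1.25 ± 0.29 (limma adjusted p = 0.00593). Without vehicle replicate 1 it was -0.90 (adjusted p = 0.0577). Of 24 genes tested on the ATF4 amino acid response list, 1 fell and 23 did not pass, with a median of -0.13. Of all genes tested, 0.232% fell. Fgf21, a stress hormone that acinar cells make, measured 2.14 and 1.14 FPKM with vehicle and 0.390 and 0.374 FPKM with BKC (log2 change -0.91 ± 0.28, limma adjusted p = 0.158). Asns, asparagine synthetase, at 28.4 and 21.2 against 21.5 and 20.0 FPKM, and Atf4 itself, at 45.5 and 30.4 against 43.1 and 36.9 FPKM, overlapped between groups. In all, 8 of the 24 genes were lower in both BKC libraries and 0 were higher, beside 11% and 5.06% of all genes tested. Fgf21 met the filter only through its vehicle values. List members under the filter went both ways. Atf3 was higher in both BKC libraries, at 0.310 and 0.0623 against 1.85 and 0.390 FPKM, whereas Trib3 and Sesn2 were lower in both.

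**Figure D4:**
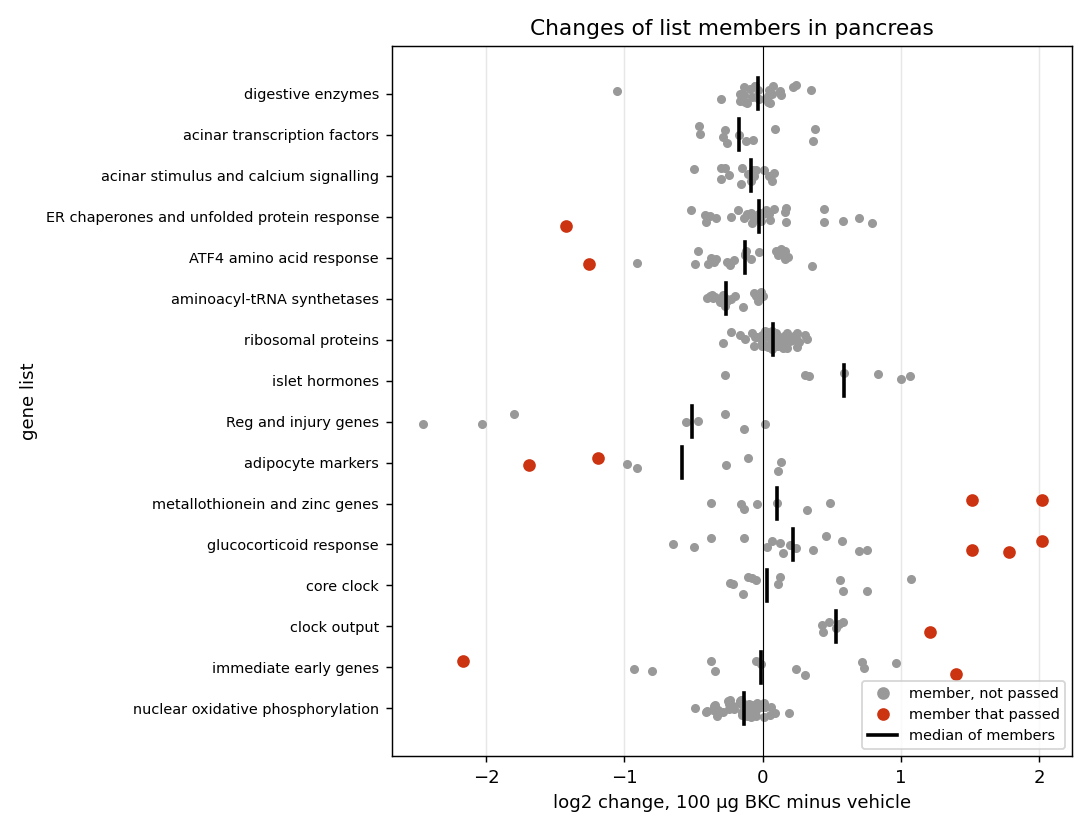
Log2 change (BKC minus vehicle) on the x axis of each tested member of 16 gene lists in rows, with members that passed in red, others in grey and the list median as a black bar; a gene can stand in more than 1 list, as Mt1 and Mt2A do. Medians of most lists lie near 0, the adipocyte median is -0.59, the clock output median is 0.53 and digestive enzymes lie close together around -0.03.

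The remaining called genes belong to no common list. Arg2, the mitochondrial arginase, measured 1.36 and 0 FPKM with vehicle and 3.56 and 2.01 FPKM with BKC, a log2 change of 1.27 ± 0.27 (limma adjusted p = 0.00257). Gga1, an adaptor for sorting from the Golgi to lysosomes, measured 0.844 and 0.926 FPKM with vehicle and 3.47 and 3.42 FPKM with BKC, a log2 change of 1.24 ± 0.29 (limma adjusted p = 0.00746). B3galt2, a galactosyltransferase of the Golgi, measured 10.3 and 6.55 FPKM with vehicle and 2.50 and 2.71 FPKM with BKC, a log2 change of -1.36 ± 0.34 (limma adjusted p = 0.0165). In Gga1 and B3galt2 the BKC replicates were nearly equal, and both passed with either vehicle library left out. Samd7, known from mouse photoreceptors as part of a silencing complex, measured 4.31 and 2.55 FPKM with vehicle and 0 and 0.982 FPKM with BKC (log2 change -1.63 ± 0.28, limma adjusted p = 7.25e-06). The uncharacterised long noncoding RNA LOC102553416 measured 3.4 and 2.55 FPKM with vehicle and 0.162 and 0.193 FPKM with BKC, the smallest p of all genes (log2 change -1.75 ± 0.27, limma adjusted p = 5.29e-07). It was the 1 gene called under median-ratio scaling. Both its BKC values lay under the filter on low values, so LOC102553416 was tested only because of its vehicle values. Without that filter its limma adjusted p was 0.855. Gga1 and Arg2 met the filter only through their BKC values, and Samd7 only through its vehicle values. Arg2 and Samd7, each with a library at 0, lost their calls with a pseudocount of 0.1, under which their log2 changes were 2.86 and -3.38.

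A further 5 called genes encode short noncoding RNAs, for which a polyadenylated RNA library and a length-scaled unit give uncertain levels. The transfer RNA genes Trnah-gug9 and Trnas-cga3 fell, with log2 changes of -1.16 and -1.11, as did the small nuclear RNA LOC120103376 with -1.97. LOC120103376 measured 2.95 and 13.4 FPKM with vehicle and 1.03 and 0.842 FPKM with BKC, so vehicle replicate 2 was far above its partner. Its log2 change was -2.90 without vehicle replicate 1 and -1.03 without vehicle replicate 2. The small nucleolar RNAs Snord69 and LOC120100227 rose, with log2 changes of 1.12 and 1.14. Trnah-gug9 had the tightest replicates, at 2.59 and 2.44 FPKM with vehicle and 0.60 and 0.555 FPKM with BKC.

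Islet hormone transcripts varied between single libraries and 0 of 7 passed. Ins1 measured 282 and 36.9 FPKM with vehicle and 259 and 164 FPKM with BKC, and Ins2 measured 181 and 23.5 against 170 and 113 FPKM. For both insulin genes vehicle replicate 2 was the low library. Ins2 also measured 14.1 to 25.6 FPKM in adrenal and 10.3 to 15.3 FPKM in heart libraries, where Ins1 was listed at 0. The 23.5 FPKM of Ins2 in vehicle replicate 2 lay within that adrenal range, so part of the Ins2 value may not come from islets, which was not tested. Glucagon (Gcg) was high in BKC replicate 1 alone, at 4.72 and 2.04 against 32.8 and 0.641 FPKM. Pancreatic polypeptide (Ppy) was high in vehicle replicate 1 and BKC replicate 2, at 45.0 and 0.397 against 2.01 and 13.7 FPKM. The hormones thus did not follow 1 order of libraries. The summed level of the list was 525 and 64.3 FPKM with vehicle and 473 and 300 FPKM with BKC, and the log2 change of Ins1 carried an error of 1.48, larger than its value of 1.00. Without vehicle replicate 1, Ins1 (log2 change 2.45, adjusted p = 0.00690), Ins2 (2.51, adjusted p = 0.00496) and Sst (0.89, adjusted p = 0.0269) passed, and without vehicle replicate 2 their changes were -0.45, -0.38 and -0.22. The islet share of each tissue piece was not measured.

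Vehicle replicate 1 stood apart in a group of genes that are raised in injured acinar tissue. Reg3b, an antibacterial lectin of the Reg family, measured 307 and 4.58 FPKM with vehicle and 13.3 and 2.99 FPKM with BKC. Reg3a measured 151 and 3.4 against 8.97 and 3.02 FPKM. Reg1a, a secreted lectin of acinar cells, measured 2249 and 437 FPKM with vehicle and 247 and 327 FPKM with BKC, a log2 change of -1.80 ± 0.66 (unadjusted p = 0.0257, limma adjusted p = 1.00). For Reg3a and Reg3b the other 3 libraries lay far below it. Of 8 Reg and injury genes tested, 0 passed. Without robust shrinkage Reg3b (adjusted p = 1.56e-06) and Reg1a (0.0142) passed. Reg1a also passed without vehicle replicate 2 (log2 change -2.98, adjusted p = 0.000499), as did Krt19, a duct keratin (-1.56, adjusted p = 0.00111), while without vehicle replicate 1 the change of Reg1a was -0.62. Red cell transcripts showed a similar high library, with sums of 286 and 22.3 FPKM with vehicle and 96.5 and 23.6 FPKM with BKC.

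Markers of immune cells were low. The T and NK cell markers summed to 0.721 to 1.84 FPKM per library and the B and plasma cell markers to 0.0685 to 0.161 FPKM, and no member of either list reached 1 FPKM in any library. Of 29 inflammatory genes, 4 were tested and 0 passed, and Il6, Tnf, Ccl3 and Sele were listed at 0 in all 4 libraries. Macrophage markers summed to 26.6 and 15.3 FPKM with vehicle and 27.2 and 22.6 FPKM with BKC, and 0 of 8 tested passed. Of 12 intestinal markers, Fabp2, Apoa4, Apoa1, Lct and Alpi were listed at 0 in all 4 libraries. Tff3, a goblet cell peptide, measured 1.49 FPKM in vehicle replicate 1 and was listed at 0 in the other libraries, and Muc2, Fabp1, Cdx2 and Slc15a1 were above 0 in that library alone, at 0.110 FPKM or less. Vil1, a microvillus protein, measured 3.37 and 2.41 FPKM with vehicle and 1.89 and 1.72 FPKM with BKC and did not pass. The summed level of the list was 8.36 and 4.78 FPKM with vehicle and 5.43 and 4.76 FPKM with BKC.

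**Figure D5:**
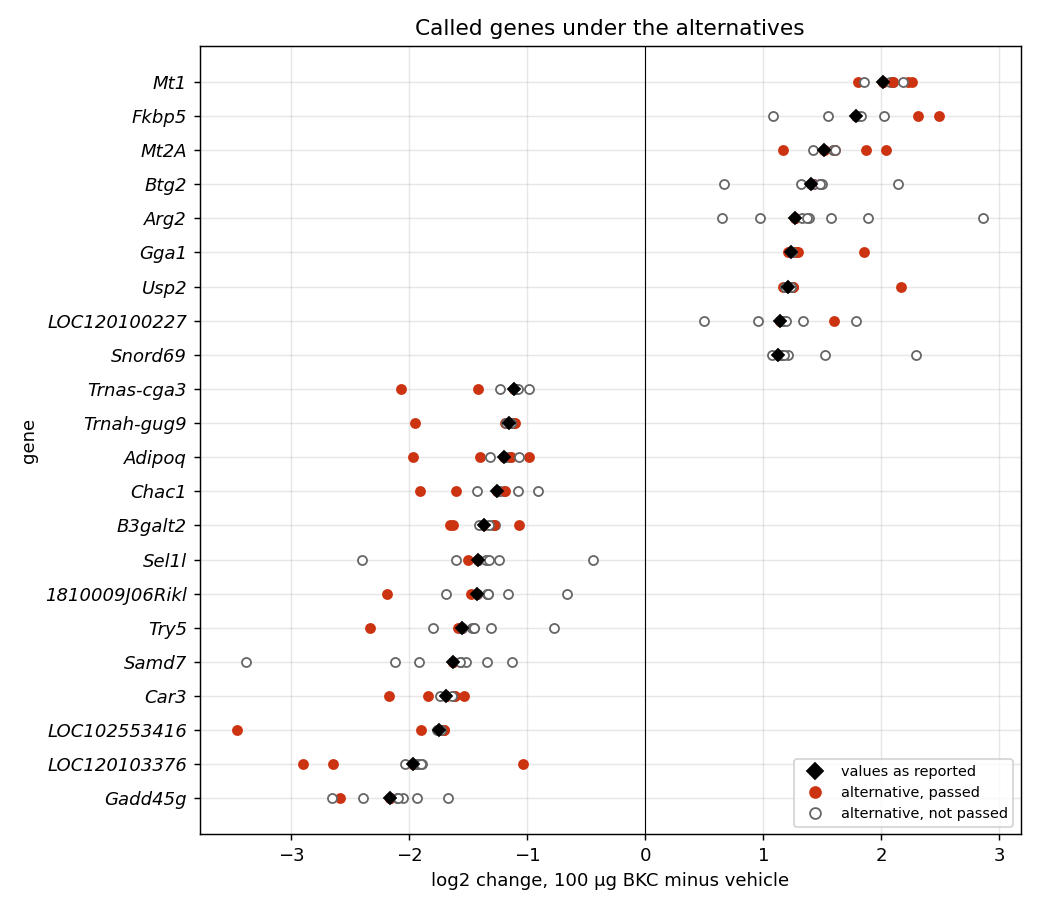
Log2 change of the 22 called genes as reported (black diamonds) and under up to 11 alternatives (circles), filled red where the gene passed and open where it did not. No circle crosses 0, and Mt1, Mt2A, Car3, Usp2, Adipoq, Gga1, B3galt2, Trnah-gug9 and LOC102553416 passed in at least 6 alternatives, whereas Btg2, Arg2, Samd7, Sel1l and Snord69 passed in 2.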

How the data were processed

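RNA of pancreas (integrity value above 9 per the labels' protocols) was sequenced as stranded mRNA libraries. The deposited table gives 1 value per gene and library for 45777 gene rows, with 71 repeated transfer RNA symbols. The authors' values were read as FPKM, a unit the table does not state and that was inferred from values that are not whole and sums that differ between libraries. The submitters' processing notes name 3 tools with no role or order, edgeR 3.40.2, HISAT2 2.1.0 and StringTie 2.1.3b. The genome build and annotation are not given in the sources used here. Each of the 45777 rows has a symbol of the RefSeq gene list of GRCr8. Low values gave no steps of whole reads, so depth is unknown and no counting interval was computed. 0 columns were left unmatched to a sample.

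The 4 pancreas libraries were fitted with limma 3.58.1 in R 4.3.3 on log2(FPKM + 1) with a variance trend and robust shrinkage, for genes that averaged 1 FPKM or more. This scale understates changes of low genes. A gene could meet the filter of 1 FPKM through the group where it was high. Among the rises this held for Usp2, Gga1, Arg2 and Snord69, whose vehicle values averaged under 1 FPKM. Among the falls it held for Samd7, Adipoq, Chac1, Trnah-gug9, Trnas-cga3, LOC102553416 and LOC120103376, whose BKC values averaged under that level. The estimated prior degrees of freedom were infinite for the median gene, so most variances were those of the trend at the gene's level. Calls required a p under 0.05 after Benjamini-Hochberg adjustment over all genes tested, and "rose" and "fell" are used of called genes only. Nothing in the labels says that the libraries come from separate cages or days. The procedure was tested on simulated data whose noise followed the variance trend. That test could not show how it treats genes with wider spread of their own, such as Sel1l. A set of 11 alternatives was run. Other organs were used only to check the tissue and, for the adrenal gland, in a limma interaction fit over 8 libraries. The heart column of BKC replicate 2 is equal to the adrenal column of that name in all 45777 rows and was not used for heart. Promoter windows are RefSeq's for GRCr8, and 14 of the 22 called genes have one. Figures were drawn with matplotlib 3.10.9 in Python 3.11.15.

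The genes named are the 30 with the smallest p, placeholder symbols left out, all called members of the gene lists, and 35 reference genes of the pancreas; further list members, and the called genes with placeholder symbols, were named after their values were seen. The libraries compared and the 51 gene lists were chosen with earlier results of these data known.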

Additional observations from a re-analysis of the deposited data

Results flagged for a closer look

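The effect of 100 µg BKC was set against that in the adrenal gland in 1 limma fit over 8 libraries. Of 11567 genes tested, 257 differed between the organs, and 4 of the 19 called pancreas genes in that fit were among them. The 19 were called on the same pancreas libraries, so their number among the 257 is not independent of that choice. For Mt1 the log2 change in pancreas minus that in adrenal gland was 4.43 (adjusted p = 2.92e-06). Adrenal Mt1 measured 174 and 150 FPKM with vehicle and 22.6 and 38.6 FPKM with BKC, a log2 change of -2.41 against 2.02 in pancreas. For Mt2A the difference was 5.03 (adjusted p = 2.92e-06), with adrenal values of 288 and 160 FPKM with vehicle and 18.8 and 16.9 FPKM with BKC. Both metallothionein genes were thus lower with BKC in both adrenal libraries and higher in both pancreas libraries.

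The difference was 1.60 for Gga1 (adjusted p = 0.0250), whose adrenal values overlapped between groups at 4.14 and 7.18 against 5.03 and 3.21 FPKM. For B3galt2 it was -1.41 (adjusted p = 0.0348). The adrenal libraries held at most 0.0643 FPKM of B3galt2, so this difference largely repeats the pancreas change of -1.36. The names of adrenal vehicle and BKC libraries differ in style, so naming style and dose cannot be told apart there. One adrenal BKC library also stands in the heart table with equal values; adrenal markers are high in it.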

How the results depend on the processing

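The test called 22 genes, 9 up and 13 down, with members in 8 lists. A set of 11 alternatives was run. Among those that kept all 4 libraries, 3 gave counts within 1.5 times of that. These were a pseudocount of 0.1 (20 genes), limma without robust shrinkage (23) and the 50 highest genes left out (20, of which 10 were among the 22). No filter on low values gave 0 genes, 0 up, 0 down and 0 lists, with 21622 genes tested and 620 at an unadjusted p under 0.05. Median-ratio scaling gave 1 gene, 0 up, 1 down and 0 lists, and quantile normalization 2 genes, 0 up, 2 down and 1 list. The median prior degrees of freedom were infinite as reported, 3.94 with median-ratio scaling and 3.88 with quantile normalization. With each library left out in turn, genes called ranged from 0 to 115, rises from 0 to 22, falls from 0 to 100 and lists from 0 to 19. Of the 22 genes, 0 passed under every alternative. Over 666 pairs of a named gene and an alternative, 448 kept direction and side of the threshold, 143 lost the call, 33 gained one and 42 changed sign, none of the last for a called gene. The causes were not tested.

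Fitting the replicate number as a block gave 44 genes, 15 up and 29 down, including all 22, and 10 lists. The replicates share only a number: the animal numbers differ between groups, and the deviations of same-numbered libraries correlated with r = 0.42 over 5610 genes for replicates 1, which replicates 2 mirror by construction. That is a hint from the data and not from the design.

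The log2 changes that turned sign were Ppy at 0.19 with the smaller pseudocount, Cela1 at 0.0578, Cftr at 0.0140 and Spink1 at 0.0308 with median-ratio scaling, Amy2a3 at 0.11, Pnlip at -0.19, Cftr at 0.0108, Hspa5 at 0.0055 and Spink1 at 0.21 with quantile normalization, and Cftr at 0.0180 without the 50 highest genes. With each library left out in turn, changes ranged from -0.12 to 0.56 for Prss1, -0.33 to 0.10 for Cpa1, -0.37 to 0.10 for Cpb1, -0.30 to 0.25 for Cela1, -0.46 to 0.53 for Cela2a, -0.26 to 0.34 for Pnlip and -0.0210 to 0.27 for Ctrb1. They ranged from -0.0441 to 0.78 for Ptf1a, -0.11 to 0.13 for Cckar, -0.45 to 2.45 for Ins1, -0.38 to 2.51 for Ins2, -0.56 to 1.74 for Iapp, -1.35 to 3.02 for Gcg, -0.22 to 0.89 for Sst and -2.79 to 2.25 for Ppy. They also crossed 0 for Hspa5 (-0.41 to 0.18), Atf4 (-0.18 to 0.38), Xbp1 (-0.56 to 0.0180), Reg3b (-5.35 to 0.44), Spink1 (-0.51 to 0.40), Col1a1 (-0.22 to 0.24), Acta2 (-0.64 to 0.0518) and Hba-a1 (-2.38 to 0.94).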

Other observations

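The housekeeping lists of the secretory cell held no called gene. All 18 aminoacyl-tRNA synthetases, which charge transfer RNAs, were tested with 0 passing, and 17 had negative log2 changes with a median of -0.26. Nars1, asparaginyl-tRNA synthetase, measured 13.4 and 9.82 FPKM with vehicle and 8.70 and 8.20 FPKM with BKC, and 4 of the 18 were lower in both BKC libraries than in both vehicle libraries, as were 11% of all genes tested. The 68 ribosomal protein genes had a median of 0.08, with 55 positive and 0 passing, where 1963 of all 5610 changes were positive. Of 43 nuclear genes of oxidative phosphorylation 36 had negative changes, with a median of -0.13 and 0 passing. Of 28 genes of the signal recognition particle and translocon, which carry new proteins into the endoplasmic reticulum, 25 had negative changes, with a median of -0.14 and 0 passing, although Rn7sl1 was higher with BKC. Over all genes tested the median was -0.07, and 3647 of 5610 changes were negative.

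Several genes had small p-values without passing. Susd3, a membrane protein, measured 3.43 and 5.08 FPKM with vehicle and 14.5 and 8.99 FPKM with BKC (limma adjusted p = 0.0737). Wfdc21 measured 0.688 and 0.670 against 2.15 and 2.22 FPKM. Sncg, gamma-synuclein, a protein also known from fat cells and neurons, measured 2.61 and 2.09 FPKM with vehicle and 0.896 and 0.570 FPKM with BKC (limma adjusted p = 0.0986). Id2, an inhibitor of basic helix-loop-helix factors, measured 3.64 and 1.20 against 0.770 and 0.652 FPKM. Fam25a measured 13.5 and 8.59 FPKM with vehicle and 22.8 and 26.6 FPKM with BKC. In each of these 5 genes the groups did not overlap. With vehicle replicate 2 left out Susd3 (adjusted p = 0.0470), Wfdc21 (0.0173), Sncg (0.0114) and Id2 (0.00175) passed, and with vehicle replicate 1 left out Wfdc21 (0.0222) and Fam25a (0.0454) did.

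Of 13 insulin and growth signalling genes tested, 0 passed. Igfbp4, a binding protein of insulin-like growth factors, measured 15.1 and 9.53 FPKM with vehicle and 5.59 and 6.54 FPKM with BKC, a log2 change of -0.88 ± 0.36. Foxo3, a factor that insulin signalling restrains, measured 3.10 and 4.68 against 7.60 and 5.66 FPKM, a log2 change of 0.65 ± 0.34. Ehhadh, a peroxisomal enzyme of fatty acid oxidation, measured 5.25 and 3.08 FPKM with vehicle and 7.35 and 6.76 FPKM with BKC, and 0 of 20 genes of its list passed.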
